A study of Mus musculus with 18 samples.

Results

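The 38 genes described here are the sensors, chaperones, oxidoreductases and degradation machinery of the endoplasmic reticulum (ER), read in bone marrow-derived macrophages (BMDM) in which choline metabolism was blocked. They were taken by name, as the rows of the count table whose Ensembl identifier maps on GRCm38 to 1 of 38 listed symbols, and all 38 were found among 55385 genes. The rule reads no measured value, but the list was drawn up with earlier results of these data known. They fall into 4 sensors and transcription factors, 11 chaperones and co-chaperones, 6 oxidoreductases, 13 genes of ER-associated degradation (ERAD) and 4 genes of translocation, export and the ER membrane.

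Proteins of the secretory pathway enter the ER through the Sec61 channel, fold with the help of chaperones and disulfide-forming oxidoreductases, and leave in vesicles with the COPII coat. When unfolded proteins build up, the membrane sensors IRE1 (encoded by *Ern1*), ATF6 and PERK start the unfolded protein response (UPR). IRE1 splices the *Xbp1* mRNA and ATF6 is cut in the Golgi, which frees transcription factors that raise chaperone and ERAD genes, while PERK slows translation and raises ATF4. ERAD passes misfolded proteins through a membrane complex around *Sel1l* and the ubiquitin ligase *Syvn1* to the ATPase *Vcp* and the proteasome. Macrophages are secretory cells, and the IRE1 arm is known for its part in their cytokine production.

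The BMDM were grown from the marrow of 3 individual female C57BL/6J mice, 12 weeks of age, with medium conditioned by L929 fibroblasts. Cells received vehicle (Veh, DMSO at 0.1%), 250 µM hemicholinium-3 (HC3), which blocks choline uptake, or 5 µM RSM-932a (RSM), a choline kinase inhibitor, over 24 h. They were next left naïve (M[0]) or given IL-4 at 20 ng/mL, named M[IL-4], for a further 24 h. All 6 groups therefore share the mouse strain and the culture, and none carries a genetic change. There were 3 libraries per group and 18 in all, made from poly-T selected mRNA, and counts per gene do not separate spliced from unspliced *Xbp1* mRNA.

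The promoters of these genes are where ATF6 and XBP1 are known to act, so the sequences of 5 members that behaved differently are given here, the 250 bases before the RefSeq start (GRCm38.p6, 5′ to 3′ on the strand of the gene). *Hspa5* (chr2:34771840-34772089, plus strand), *Calr* (chr8:84846932-84847181, minus strand) and *Herpud1* (chr8:94386179-94386428, plus strand) hold a form of the ER stress response element, and *Ern1* (chr11:106487797-106488046, minus strand) and *Ero1l* (RefSeq *Ero1a*, chr14:45318573-45318822, minus strand) do not. Capitals mark the outer letters of the ER stress response element (CCAAT and CCACG with 9 bases between, or ATTGG and CCACG with 1 base between) and of the composite site core TGATGNAA, on either strand.
Hspa5: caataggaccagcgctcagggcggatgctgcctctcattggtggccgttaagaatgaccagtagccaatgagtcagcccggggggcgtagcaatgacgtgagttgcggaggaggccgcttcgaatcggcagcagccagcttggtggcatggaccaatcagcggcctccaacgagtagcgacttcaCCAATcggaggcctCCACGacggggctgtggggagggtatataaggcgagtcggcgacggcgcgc
Calr: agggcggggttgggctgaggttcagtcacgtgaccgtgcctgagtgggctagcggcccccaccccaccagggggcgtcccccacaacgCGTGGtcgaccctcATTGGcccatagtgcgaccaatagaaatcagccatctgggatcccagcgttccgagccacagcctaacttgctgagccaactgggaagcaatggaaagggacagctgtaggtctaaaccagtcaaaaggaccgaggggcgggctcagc
Herpud1: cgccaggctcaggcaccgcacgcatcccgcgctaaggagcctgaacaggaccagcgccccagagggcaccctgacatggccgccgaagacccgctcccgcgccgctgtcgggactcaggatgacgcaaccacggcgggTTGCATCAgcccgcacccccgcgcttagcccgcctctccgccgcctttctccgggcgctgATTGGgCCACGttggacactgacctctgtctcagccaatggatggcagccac
Ern1: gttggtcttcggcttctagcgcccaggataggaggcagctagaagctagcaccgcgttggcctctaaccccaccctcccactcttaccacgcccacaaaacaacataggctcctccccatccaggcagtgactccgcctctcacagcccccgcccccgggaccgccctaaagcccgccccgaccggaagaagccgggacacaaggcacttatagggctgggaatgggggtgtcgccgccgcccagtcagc
Ero1l: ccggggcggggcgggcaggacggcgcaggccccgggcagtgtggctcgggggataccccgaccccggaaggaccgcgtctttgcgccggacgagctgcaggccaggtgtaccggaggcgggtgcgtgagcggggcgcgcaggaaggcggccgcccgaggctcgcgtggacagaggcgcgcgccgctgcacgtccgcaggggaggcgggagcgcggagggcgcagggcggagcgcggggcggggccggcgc

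RefSeq windows (250 bases before to 50 after the start) were at hand for 33 of the 38 members. *Atf6*, *Hyou1*, *Manf*, *Derl1* and *Sec61a1* had none. A form of the ER stress response element was found in 12 of the 33 (36.4%) and in 0.155% of all 32851 windows. The longer form was in *Hspa5*, *Hsp90b1*, *Calr*, *Canx*, *Dnajc3*, *Creld2*, *Pdia6*, *Ero1lb*, *Syvn1* and *Derl3*, and the shorter in *Herpud1* and *Dnajb11*. The UPR element core TGACGTGG was in *Vcp* and *Sec24d*, against 0.676% of all windows, and the C/EBP-ATF composite core TGATGNAA was in *Herpud1*, against 3.969%. Read on the other strand, TGACGTGG begins with the letters CCACG of the ER stress response element. The members were listed for their place in this response, so the difference from all windows describes the list and was not tested.

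Total counts were 17457796 to 19522255 per library, with 14979 genes tested. All 38 members passed the count filter, and no library was at 0 for any of them. The members are abundant, with a median level of 161 CPM (the count relative to the TMM-scaled library total) against 17 CPM over all genes tested. Together they took 0.794% to 0.842% of the counts in Veh M[0], 0.936% to 1.01% in HC3 M[0], 0.882% to 0.938% in RSM M[0], 0.924% to 1.04% in Veh M[IL-4], 0.982% to 1.07% in HC3 M[IL-4] and 0.915% to 0.966% in RSM M[IL-4]. Per kb of exon, the most abundant members were *Calr* (307 CPM per kb, mean of the 18 libraries), *P4hb* (254), *Hspa5* (250.3) and *Pdia3* (197), and the least abundant were *Wfs1* (6.86) and *Derl3* (0.217). The cells carried all 7 macrophage markers above 1 CPM in every group. The summed level of these markers was 19650 to 20765 CPM in Veh M[0], 8460 to 9556 in HC3 M[0], 15244 to 16775 in RSM M[0], 11663 to 12027 in Veh M[IL-4], 7403 to 8593 in HC3 M[IL-4] and 10452 to 12849 in RSM M[IL-4]. *Lyz2* made up much of this sum, with group means of 11633 and 11660 CPM in Veh and RSM M[0] and 4531 and 5903 in Veh and RSM M[IL-4]. Between the same groups the mean of *Csf1r* was 3967 and 1720 CPM for M[0], then 3508 and 2142 for M[IL-4]. That of *Fcgr1* was 181 and 88.8, then 51.4 and 81.1. In M[0] all 7 macrophage markers had a lower mean under HC3 than under Veh, and all but *Lyz2* had a lower mean under RSM. *Adgre1*, for example, had 2837 CPM under Veh, 1218 under HC3 and 1266 under RSM. In M[IL-4] the markers did not move together. *Fcgr1* was higher there under both inhibitors and *Lyz2* under RSM, while the other means were lower, some by little. Of 6 stromal markers 5 were above 1 CPM, and their sum was 507 to 855 CPM in Veh M[0], 1199 to 1644 in HC3 M[0] and 998 to 1423 in RSM M[0], against 278 to 648, 550.4 to 1038 and 527 to 1045 in the 3 groups of M[IL-4]. The higher sums were those of the collagens *Col1a1*, *Col1a2* and *Col3a1*. For *Dcn* the M[0] means were 8.50 CPM under Veh, 7.91 under HC3 and 2.99 under RSM, followed by 5.93, 5.47 and 2.02 for M[IL-4], while *Pdgfra* had means of 22.1, 19.0 and 16.2, then 15.4, 19.8 and 15.0, and *Lum* had 3 counts in all. Neutrophil and dendritic cell markers summed to at most 1.99 and 3.14 CPM. The part of other cells in the results below was not tested, and fewer cells of a type cannot be told apart from less RNA per cell.

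Both inhibitors raised some of these genes and lowered others, and each is compared with the same vehicle libraries, so the HC3 and RSM comparisons of a polarization are not independent. In M[0], HC3 raised 17 of the 38 members and lowered 3 at an FDR (false discovery rate) under 0.05 (edgeR's quasi-likelihood test), which is 44.7% and 7.89% of them against 22.6% and 21.5% of all genes tested. With a log2 fold change of at least 1 in size as well, the rule used here for a call, 4 members were called higher and 0 lower, against 5.93% and 6.11% of all genes. RSM in M[0] raised 13 and lowered 4 (34.2% and 10.5%, against 20.5% and 20.7%), with 5 called higher and 1 lower (all genes 5.05% and 6.51%).

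In M[IL-4], HC3 raised 13 and lowered 8 (34.2% and 21.1%, against 18.9% and 19.9%), with 3 called higher and 2 lower (4.72% and 5.53%). RSM raised 14 and lowered 9 (36.8% and 23.7%, against 20.1% and 18.5%), with 3 called higher and 3 lower (5.05% and 6.00%). The share that fell in M[IL-4] was thus near that of all genes for HC3. The median log2 fold change of the members was 0.21, 0.073, 0.074 and 0.026 in these 4 comparisons, in the order given, and that of all genes tested was 0.023, 0.0053, 0.0063 and 0.019. The same-numbered libraries of 1 polarization deviated together, and with the replicate number as a block within each polarization 25, 23, 28 and 30 members passed the FDR in place of 20, 17, 21 and 23. By direction, the members lower under RSM in M[IL-4] numbered 15 with this block in place of 9. Without replicate 3 of each group, 8 members were higher under RSM in M[IL-4] in place of 14, and 2 were lower under RSM in M[0] in place of 4.

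**Figure D1:**
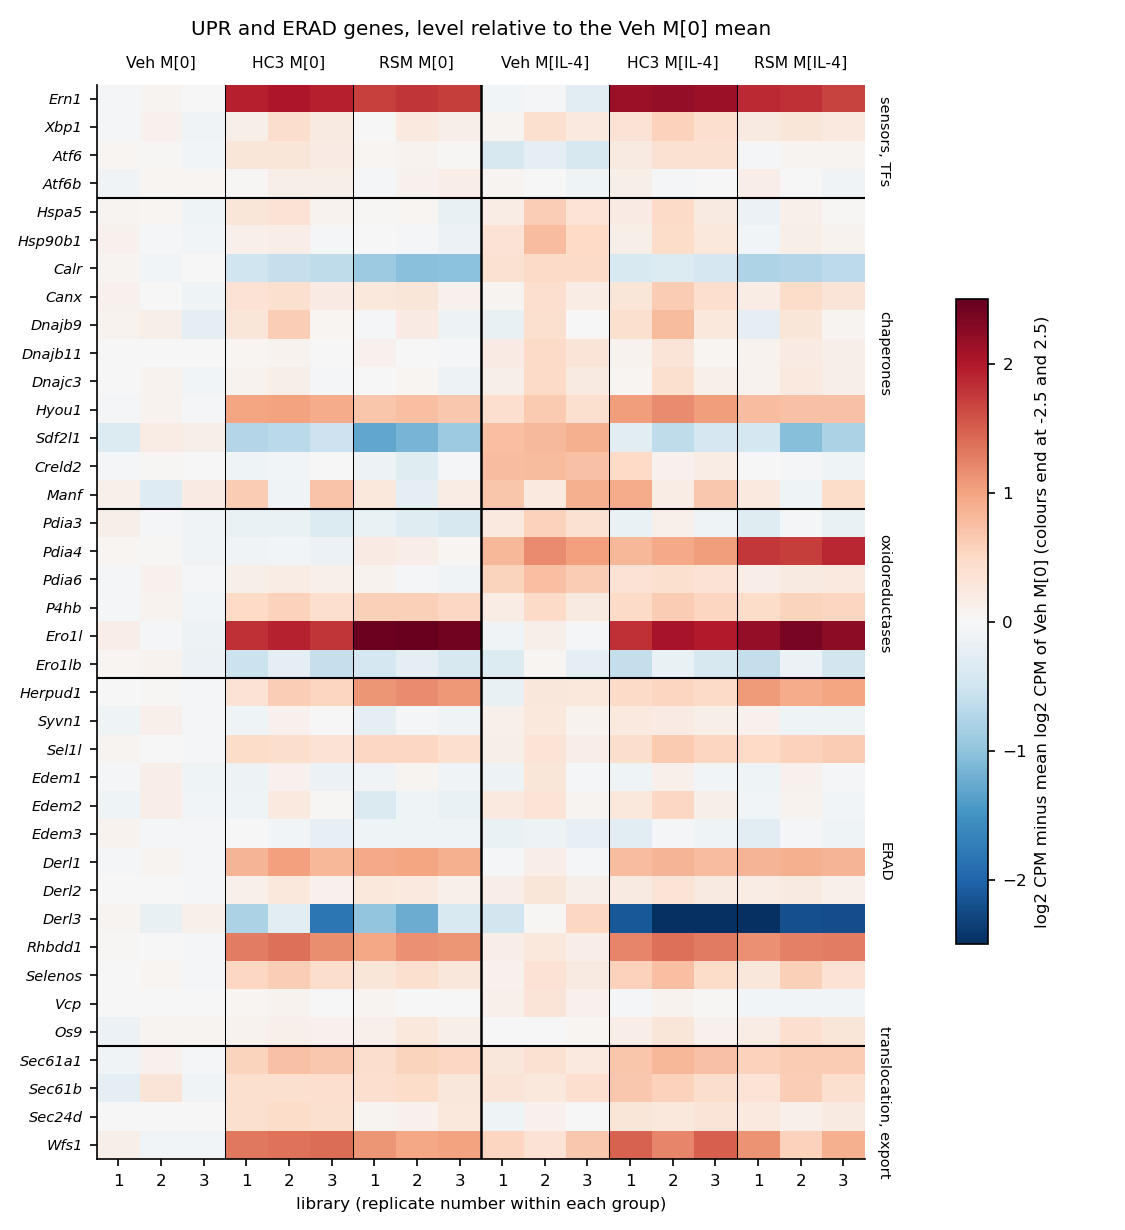
Level of each of the 38 UPR and ERAD genes (rows, by arm) in each of the 18 libraries (columns, 3 per group), as log2 CPM minus the mean log2 CPM of the 3 Veh M[0] libraries. *Ern1*, *Ero1l*, *Rhbdd1*, *Hyou1*, *Derl1* and *Wfs1* are red in the inhibitor groups, *Calr* and *Sdf2l1* are blue there, and *Derl3*, read from 1 to 19 counts per library, is darkest in HC3 and RSM M[IL-4].

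*Ern1* (ENSMUSG00000020715, chr11:106394650-106487852, minus strand), which encodes the sensor IRE1, was the most changed of the sensors. Its level was 83.7, 90.6 and 86.3 CPM in the 3 Veh M[0] libraries, 336, 351 and 336 in HC3 M[0] and 282, 298 and 286 in RSM M[0]. The M[IL-4] libraries read 82.9, 84.0 and 72.7 under Veh, 386, 399 and 381 under HC3 and 318, 309 and 279.9 under RSM. Every inhibitor library lay above every vehicle library, and within each polarization the HC3 libraries lay above the RSM libraries. On the log2 scale the change was 1.97 ± 0.065 (SE, FDR = 4.88e-14) for HC3 and 1.73 ± 0.064 (FDR = 3.45e-13) for RSM in M[0], and 2.28 ± 0.065 (FDR = 2.02e-14) and 1.92 ± 0.065 (FDR = 2.8e-13) in M[IL-4].

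The mRNA of *Xbp1*, the substrate that IRE1 splices, moved far less. *Xbp1* (ENSMUSG00000020484, chr11:5520659-5525893, plus strand) read 177, 195 and 169.9 CPM in the M[0] libraries under Veh, 199, 246 and 211 under HC3 and 181, 213 and 199 under RSM, while M[IL-4] libraries read 189, 238 and 213 under Veh, 232, 268 and 242 under HC3 and 209.6, 222 and 215 under RSM. HC3 and Veh did not overlap in M[0] and did in M[IL-4], and RSM overlapped Veh in both. It rose under HC3 in M[0] (log2 fold change 0.28, FDR = 0.0201), but did not pass without replicate 3 (FDR = 0.195). The other values were 0.13 for RSM in M[0] (FDR = 0.268, with the block 0.0291), 0.21 for HC3 in M[IL-4] (FDR = 0.074, with the block 0.000682) and 0.013 for RSM in M[IL-4], whose 95% interval was -0.18 to 0.20.

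*Atf6* (ENSMUSG00000026663, chr1:170704674-170867771, minus strand), the sensor that is cut in the Golgi, read 233, 230.0 and 218 CPM in the M[0] libraries under Veh, 279.8, 280.3 and 260.0 under HC3 and 235, 239.8 and 231 under RSM. The M[IL-4] libraries read 172, 193 and 171 under Veh, 265, 297 and 295 under HC3 and 222, 238 and 236 under RSM. The Veh M[IL-4] libraries were the lowest of all 18, below every other group. HC3 raised it in M[0] (0.27, FDR = 0.00158) and M[IL-4] (0.68, FDR = 6.58e-08), and RSM in M[IL-4] (0.38, FDR = 7.57e-05), with 0.053 for RSM in M[0] (95% interval -0.077 to 0.18). Its relative *Atf6b* passed the FDR in none of the 11 comparisons by edgeR, where its log2 fold changes ran from -0.076 to 0.11.

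**Figure D2:**
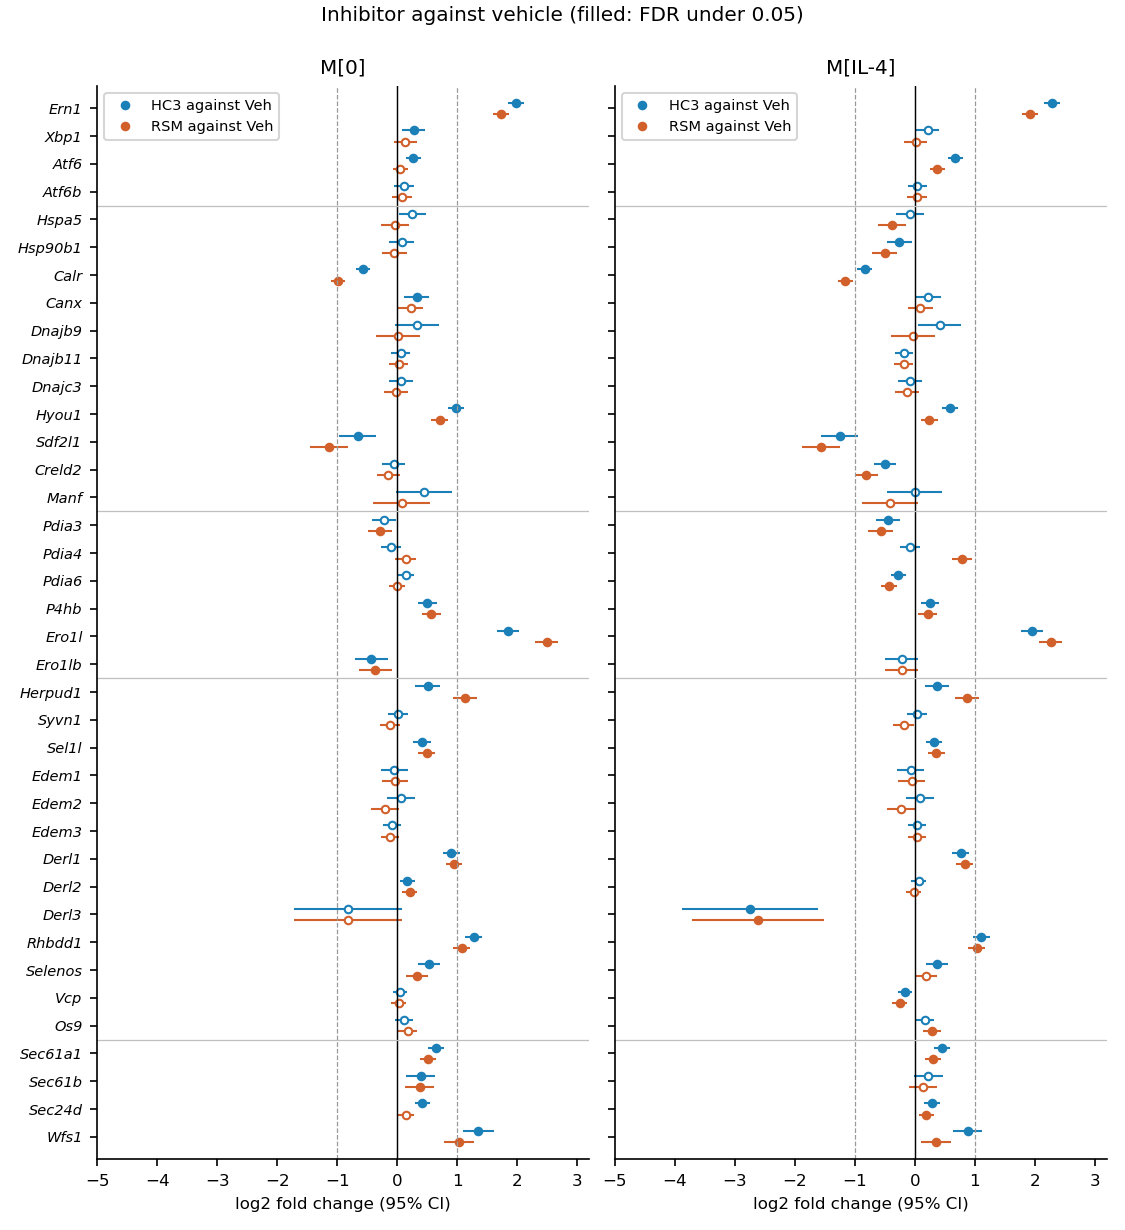
Log2 fold change of each member with its 95% confidence interval for HC3 against Veh (blue) and RSM against Veh (orange), in M[0] (left) and M[IL-4] (right), where filled points have an FDR under 0.05 and dashed lines mark a log2 fold change of -1 and 1. *Ern1* and *Ero1l* lie at 1.73 or higher in all 4 comparisons, *Calr* and *Sdf2l1* below 0 in all 4, and most chaperones near 0 in M[0].

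The chaperones did not move one way, and in M[0] their counts were near the shares of all genes. HC3 in M[0] raised 2 of 11 (*Hyou1*, *Canx*) and lowered 2 (*Calr*, *Sdf2l1*), against 22.6% and 21.5% of all genes, and RSM raised *Hyou1* and lowered *Calr* and *Sdf2l1* (20.5% and 20.7%). In M[IL-4], HC3 raised *Hyou1* and lowered 4 (*Calr*, *Sdf2l1*, *Creld2*, *Hsp90b1*), and RSM raised *Hyou1* and lowered 5 (those 4 and *Hspa5*), against 18.9% and 20.1% of all genes higher and 19.9% and 18.5% lower. *Hspa5* (ENSMUSG00000026864, chr2:34771970-34777547, plus strand) encodes BiP, the Hsp70 chaperone that holds the sensors inactive and is the usual readout of the UPR. It read 983, 979 and 870.3 CPM in the M[0] libraries under Veh, 1157, 1217 and 1000.0 under HC3 and 962, 970.4 and 834 under RSM, while M[IL-4] libraries read 1079, 1446 and 1191 under Veh, 1093, 1322 and 1095 under HC3 and 852, 1036 and 967 under RSM. The HC3 libraries lay above the Veh libraries in M[0], and the RSM libraries lay below the Veh libraries in M[IL-4]. Its log2 fold changes were 0.25 (FDR = 0.0704, with the block 2.82e-05) and -0.034 (95% interval -0.26 to 0.20) for HC3 and RSM in M[0], and -0.082 (95% interval -0.31 to 0.15) and -0.38 (FDR = 0.0096, without replicate 3 0.0538) in M[IL-4].

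*Calr* (ENSMUSG00000003814, chr8:84841850-84846934, minus strand), the calcium-binding lectin calreticulin, was the most abundant member per kb and fell under both inhibitors. It read 1133, 1022 and 1081 CPM in the M[0] libraries under Veh, 764, 722 and 692 under HC3 and 574, 525 and 532 under RSM. The M[IL-4] libraries read 1404, 1496 and 1506 under Veh, 823, 845 and 803 under HC3 and 635, 652 and 681 under RSM. The 3 groups did not overlap in either polarization, with Veh highest and RSM lowest. On the log2 scale the change was -0.57 ± 0.059 (FDR = 2.35e-07) under HC3 and -0.99 ± 0.059 (FDR = 1.72e-10) under RSM in M[0], and -0.83 ± 0.059 (FDR = 2.17e-09) and -1.16 ± 0.059 (FDR = 2.63e-11) in M[IL-4]. Its membrane-bound homologue calnexin (*Canx*) had 0.32 (FDR = 0.0138, without replicate 3 0.0999) and 0.22 (FDR = 0.0874, with the block 4.63e-05) in M[0].

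*Sdf2l1* (ENSMUSG00000022769, chr16:17130138-17132383, minus strand), a partner of BiP and its J-domain co-chaperones, read 50.4, 72.8 and 70.7 CPM in the M[0] libraries under Veh, 38.5, 39.8 and 44.2 under HC3 and 25.8, 28.3 and 34.2 under RSM, while M[IL-4] libraries read 108, 112 and 118 under Veh, 53.1, 41.1 and 47.6 under HC3 and 46.8, 30.6 and 36.7 under RSM. All inhibitor libraries lay below the vehicle libraries of their polarization. It fell by 0.66 under HC3 (FDR = 0.00126) and by 1.13 under RSM (FDR = 6.18e-06) on the log2 scale in M[0], and by 1.25 (FDR = 1.51e-06) and 1.56 (FDR = 9.14e-08) in M[IL-4].

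*Hyou1*, a large Hsp70-like chaperone that exchanges nucleotide on BiP, moved the other way. Its mean in M[0] was 163 ± 8.17 CPM (SD, n = 3) under Veh, 321 ± 9.15 under HC3 and 266 ± 8.76 under RSM, with log2 fold changes of 0.98 (FDR = 9.42e-10) and 0.71 (FDR = 8.35e-08). The M[IL-4] values were 0.59 (FDR = 1.01e-06) and 0.24 (FDR = 0.0068, without replicate 1 or 3 0.111 and 0.144). *Creld2*, a small ER-stress inducible protein, had -0.063 and -0.15 in M[0] (95% intervals -0.25 to 0.13 and -0.34 to 0.040) and fell by 0.50 (FDR = 0.000175) and 0.81 (FDR = 6.02e-07) on the log2 scale in M[IL-4]. *Hsp90b1*, the Hsp90 of the ER, fell in M[IL-4] by 0.26 under HC3 (FDR = 0.0476, without replicate 1, 2 or 3 0.056, 0.059 and 0.216) and by 0.50 under RSM (FDR = 0.000509). *1810014B01Rik* on the opposite strand covers 10.29% of the *Hsp90b1* exons, and *Gm15344* and *Gm25745* on the same strand cover 5.38%. For *Manf*, *4930524O07Rik* and *Dcaf1* on the opposite strand cover 8.85%. Without a stated strand setting, counts from opposite strands cannot be told apart. The J-domain genes *Dnajb9*, *Dnajb11* and *Dnajc3* and the secreted factor *Manf* passed the FDR in none of the 4 inhibitor comparisons by edgeR without the block, with log2 fold changes between -0.42 and 0.44. With the block, *Manf* and *Dnajb9* passed as higher for HC3 in M[0] (FDR = 5.66e-05 and 0.000269). For HC3 in M[IL-4], *Dnajb9* and *Canx* passed as higher (1.56e-05 and 5.15e-05) and *Dnajb11* as lower (0.00404). For RSM in M[IL-4], *Manf*, *Dnajb11* and *Dnajc3* passed as lower (7.62e-05, 0.00332 and 0.0318).

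*Ero1l* (ENSMUSG00000021831, chr14:45283087-45318771, minus strand), the oxidase that re-oxidises protein disulfide isomerases, rose most of all members under RSM. It read 53.8, 47.0 and 43.9 CPM in the M[0] libraries under Veh, 171, 182 and 166 under HC3 and 264, 293 and 254 under RSM, while M[IL-4] libraries read 45.2, 52.9 and 47.3 under Veh, 171, 200.5 and 190.4 under HC3 and 219.5, 250.0 and 228 under RSM. The 3 groups of each polarization did not overlap, with RSM highest and Veh lowest. On the log2 scale the change was 1.84 ± 0.088 (FDR = 6.55e-12) under HC3 and 2.49 ± 0.089 (FDR = 2.21e-13) under RSM in M[0], and 1.95 ± 0.088 (FDR = 4.62e-12) and 2.26 ± 0.089 (FDR = 1.07e-12) in M[IL-4]. Its paralogue *Ero1lb*, of which 21.7% of the transcript is near-identical to *Gm18562*, fell in M[0] by 0.43 under HC3 (FDR = 0.0115, without replicate 1 or 3 0.0642 and 0.104) and by 0.36 under RSM (FDR = 0.0317, without replicate 1 or 3 0.127 and 0.133). In M[IL-4] *Ero1lb* had -0.22 and -0.22 (FDR = 0.203 and 0.201, with the block 0.00172 and 0.00161).

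Among the disulfide isomerases, *P4hb* (ENSMUSG00000025130, chr11:120560298-120573253, minus strand), the most abundant oxidoreductase per kb, rose. It read 533, 575 and 520.4 CPM in the M[0] libraries under Veh, 765, 809 and 727 under HC3 and 818, 821 and 777 under RSM, while M[IL-4] libraries read 618, 759.7 and 630.4 under Veh, 759, 847 and 791 under HC3 and 748, 797 and 785 under RSM. The inhibitor libraries lay above the vehicle libraries in M[0] and overlapped them in M[IL-4]. The log2 fold changes were 0.50 (FDR = 2.11e-05) and 0.57 (FDR = 4.7e-06) in M[0] and 0.26 (FDR = 0.00979, without replicate 1 or 3 0.0643 and 0.165) and 0.21 (FDR = 0.0277, without replicate 1 or 3 0.137 and 0.307) in M[IL-4]. *Pdia3*, the isomerase that works with calreticulin and calnexin, fell in 3 of the 4 comparisons, by 0.29 under RSM in M[0] (FDR = 0.0247, without replicate 3 0.158) and by 0.45 and 0.57 under HC3 and RSM in M[IL-4] (FDR = 0.00128 and 0.000125), and had -0.22 under HC3 in M[0] (FDR = 0.0781, with the block 9.56e-05). *Pdia6*, an isomerase that also binds IRE1, fell in M[IL-4] by 0.27 (FDR = 0.0016) and 0.44 (FDR = 1.49e-05), with 0.15 and -0.0099 in M[0] (FDR = 0.0577 and 0.918, with the block 0.0102 for HC3).

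*Pdia4* (ENSMUSG00000025823, chr6:47796141-47813430, minus strand), another disulfide isomerase, stood apart. It read 124, 121 and 112 CPM in the M[0] libraries under Veh, 112, 113 and 108 under HC3 and 136, 134 and 123 under RSM, while M[IL-4] libraries read 210.3, 268 and 243 under Veh, 212, 228 and 245 under HC3 and 405, 393 and 442 under RSM. Every M[IL-4] library lay above every M[0] library, and the RSM M[IL-4] libraries lay above all others. Against Veh, the log2 fold change was 0.78 ± 0.079 (FDR = 2.23e-07) for RSM in M[IL-4], -0.074 (95% interval -0.24 to 0.092) for HC3 in M[IL-4], and -0.10 and 0.14 (FDR = 0.331 and 0.182, with the block 0.0429 for RSM) in M[0].

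Of the 13 ERAD genes, 6 rose under HC3 and 6 under RSM in M[0], against 22.6% and 20.5% of all genes, and 0 fell, against 21.5% and 20.7%. In M[IL-4], 5 rose and 2 fell under each inhibitor, against 18.9% and 20.1% of all genes higher and 19.9% and 18.5% lower, so the count that fell was near the share of all genes. *Rhbdd1* (ENSMUSG00000026142, chr1:82316452-82445366, plus strand), a rhomboid protease that cuts membrane proteins for degradation, read 52.2, 51.3 and 49.5 CPM in the M[0] libraries under Veh, 123, 132 and 115 under HC3 and 99.9, 112 and 109.7 under RSM, while M[IL-4] libraries read 57.0, 61.3 and 57.0 under Veh, 119, 132 and 125 under HC3 and 112, 122 and 124 under RSM. Every inhibitor library lay above every vehicle library. Its log2 fold change was 1.27 (FDR = 2.65e-11) and 1.07 (FDR = 3.43e-10) in M[0] and 1.10 (FDR = 3.24e-10) and 1.03 (FDR = 6.65e-10) in M[IL-4].

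*Herpud1* (ENSMUSG00000031770, chr8:94386438-94395377, plus strand), a membrane scaffold of the ERAD complex, responded more to RSM. It read 37.5, 37.8 and 36.0 CPM in the M[0] libraries under Veh, 47.4, 56.5 and 54.2 under HC3 and 79.9, 84.5 and 78.1 under RSM, while M[IL-4] libraries read 32.5, 45.3 and 44.4 under Veh, 51.9, 54.0 and 51.4 under HC3 and 77.8, 70.9 and 73.3 under RSM. The 3 groups of each polarization did not overlap, with Veh lowest and RSM highest. On the log2 scale the change was 0.51 (FDR = 0.000313) under HC3 and 1.12 (FDR = 2.25e-08) under RSM in M[0], and 0.37 (FDR = 0.00543) and 0.86 (FDR = 6.96e-07) in M[IL-4].

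*Derl1*, a channel-like rhomboid pseudoprotease of the ERAD complex, rose from a mean of 159 ± 7.47 CPM (SD, n = 3) in Veh M[0] to 298 ± 24.0 under HC3 and 307 ± 10.9 under RSM (log2 fold change 0.90 and 0.94, FDR = 2.74e-09 and 1.6e-09), and by 0.76 and 0.83 in M[IL-4] (FDR = 3.62e-08 and 1.08e-08). *Sel1l*, the adaptor of the ligase *Syvn1*, rose in M[0] (0.41 under HC3, 0.49 under RSM) as well as M[IL-4] (0.32 and 0.35), with FDRs from 9.85e-06 to 0.000912. *Syvn1* itself had values between -0.19 and 0.034 and passed the FDR in none of the 4, except with the block for RSM in M[IL-4] (FDR = 0.00524). *Selenos*, a selenoprotein that ties *Vcp* to the complex, rose under HC3 (0.52 in M[0] and 0.36 in M[IL-4], FDR = 7.11e-05 and 0.00236) and under RSM in M[0] (0.33, FDR = 0.00494, without replicate 3 0.0631), with 0.18 for RSM in M[IL-4] (FDR = 0.109, with the block 0.00642).

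*Derl2*, a relative of *Derl1*, rose in M[0] by 0.17 and 0.21 (FDR = 0.0332 and 0.0107), both lost on leaving out any 1 replicate (FDR 0.121 to 0.25 and 0.0545 to 0.111). The lectin *Os9*, which reads glycans on misfolded proteins, rose under RSM in M[IL-4] (0.28, FDR = 0.00387, without replicate 2 or 3 0.0588 and 0.0633), and had 0.17 and 0.17 for RSM in M[0] and HC3 in M[IL-4] (with the block FDR = 0.00652 and 0.0098). The mannosidase-like *Edem1*, *Edem2* and *Edem3*, which trim glycans to mark proteins for ERAD, passed in none of the 4 comparisons by edgeR without the block, with log2 fold changes between -0.24 and 0.087. With it *Edem2* was lower under RSM (FDR = 0.00364 for M[0] and 0.00105 for M[IL-4]).

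*Vcp* (ENSMUSG00000028452, chr4:42979963-43000507, minus strand), the most abundant ERAD gene per kb, varied little. It read 449.5, 443 and 452 CPM in the M[0] libraries under Veh, 466, 479 and 444 under HC3 and 471, 444 and 449 under RSM, while M[IL-4] libraries read 487, 557 and 486 under Veh, 435, 474 and 456 under HC3 and 429, 428 and 427 under RSM. The groups overlapped in M[0], and in M[IL-4] the vehicle libraries were the highest. The log2 fold changes were 0.047 and 0.021 in M[0] (95% intervals -0.074 to 0.17 and -0.10 to 0.14), and it fell in M[IL-4] by 0.16 (FDR = 0.0316, without replicate 1, 2 or 3 0.0931, 0.145 and 0.133) and 0.25 (FDR = 0.00176). Of its transcript, 73.0% is near-identical to *Vcp-rs* or *1700022I11Rik*, and the latter lies on the opposite strand over 7.26% of its exons. Its counts are less certain in these stretches, by an amount that was not tested.

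*Derl3* (ENSMUSG00000009092, chr10:75893413-75895941, plus strand), a derlin best known from secretory cells, was close to the detection limit, with 14, 11 and 15 counts in Veh M[0], 8, 12 and 4 in HC3 M[0] and 7, 6 and 11 in RSM M[0]. In M[IL-4] it had 10, 13 and 19 counts under Veh, 3, 1 and 2 under HC3 and 1, 3 and 3 under RSM. In CPM the inhibitor libraries lay below the vehicle libraries of their polarization. The M[0] difference did not pass the FDR (0.133 under HC3 and 0.138 under RSM). The ratio of its summed level to Veh in M[IL-4] was 0.142 under HC3 (exact 95% interval 0.0493 to 0.336, counting error only) and 0.157 under RSM (0.0595 to 0.353), and edgeR called it lower in both (FDR = 0.000456 and 0.000531). The 8 plasma and B cell markers, which mark cells rich in *Derl3*, summed to 21.5 to 27.8 CPM in Veh M[0] and 4.36 to 7.11 in Veh M[IL-4], and to between 0.357 and 2.72 CPM in the inhibitor groups. The part of such cells in the *Derl3* values was not tested.

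All 4 genes of translocation, export and the ER membrane rose under HC3 in M[0] (all genes 22.6%), and 3 rose in each of the other inhibitor comparisons (18.9% to 20.5%). *Sec61a1* (ENSMUSG00000030082, chr6:88503579-88518905, minus strand), the pore of the Sec61 channel, read 147, 169 and 154 CPM in the M[0] libraries under Veh, 231, 258 and 249 under HC3 and 213, 231 and 223 under RSM, while M[IL-4] libraries read 190.1, 204 and 186 under Veh, 254, 278 and 261 under HC3 and 232, 242 and 241 under RSM. Every inhibitor library lay above the vehicle libraries of its polarization. Its log2 fold change was 0.65 (FDR = 1.16e-07) and 0.51 (FDR = 3.06e-06) in M[0] and 0.45 (FDR = 1.37e-05) and 0.30 (FDR = 0.000857, without replicate 3 0.0739) in M[IL-4]. *Gm44170* on the opposite strand covers 8.16% of its exons, and without a stated strand setting these counts cannot be told apart.

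*Wfs1* (ENSMUSG00000039474, chr5:36966104-36989205, minus strand), the ER membrane protein wolframin, read 14.9, 12.9 and 12.9 CPM in the M[0] libraries under Veh, 33.9, 34.6 and 35.4 under HC3 and 29.0, 26.6 and 27.2 under RSM. The M[IL-4] libraries read 19.6, 17.4 and 21.6 under Veh, 37.8, 31.7 and 38.2 under HC3 and 29.4, 20.2 and 24.9 under RSM. The 3 groups did not overlap in M[0], and RSM overlapped Veh in M[IL-4]. Its log2 fold change was 1.35 (FDR = 3.36e-08) and 1.02 (FDR = 1.42e-06) in M[0] and 0.88 (FDR = 7.36e-06) and 0.35 (FDR = 0.0265, without replicate 1 or 3 0.275 and 0.0986) in M[IL-4]. The COPII coat gene *Sec24d* rose under HC3 (0.42 and 0.29, FDR = 1.98e-05 and 0.00096) and under RSM in M[IL-4] (0.19, FDR = 0.0181, without replicate 1 or 3 0.195 and 0.169), with 0.15 for RSM in M[0] (FDR = 0.061, with the block 0.0296). *Sec61b*, the small subunit of the channel, 22.8% of whose transcript is near-identical to *Gm10320*, rose in M[0] by 0.39 and 0.37 (FDR = 0.00962, without replicate 1 or 3 0.158 and 0.148, and 0.0132, without replicate 1 or 3 0.214 and 0.107), with M[IL-4] values of 0.23 under HC3 (FDR = 0.121, or 0.0451 with the block) and 0.13 under RSM (FDR = 0.395).

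**Figure D3:**
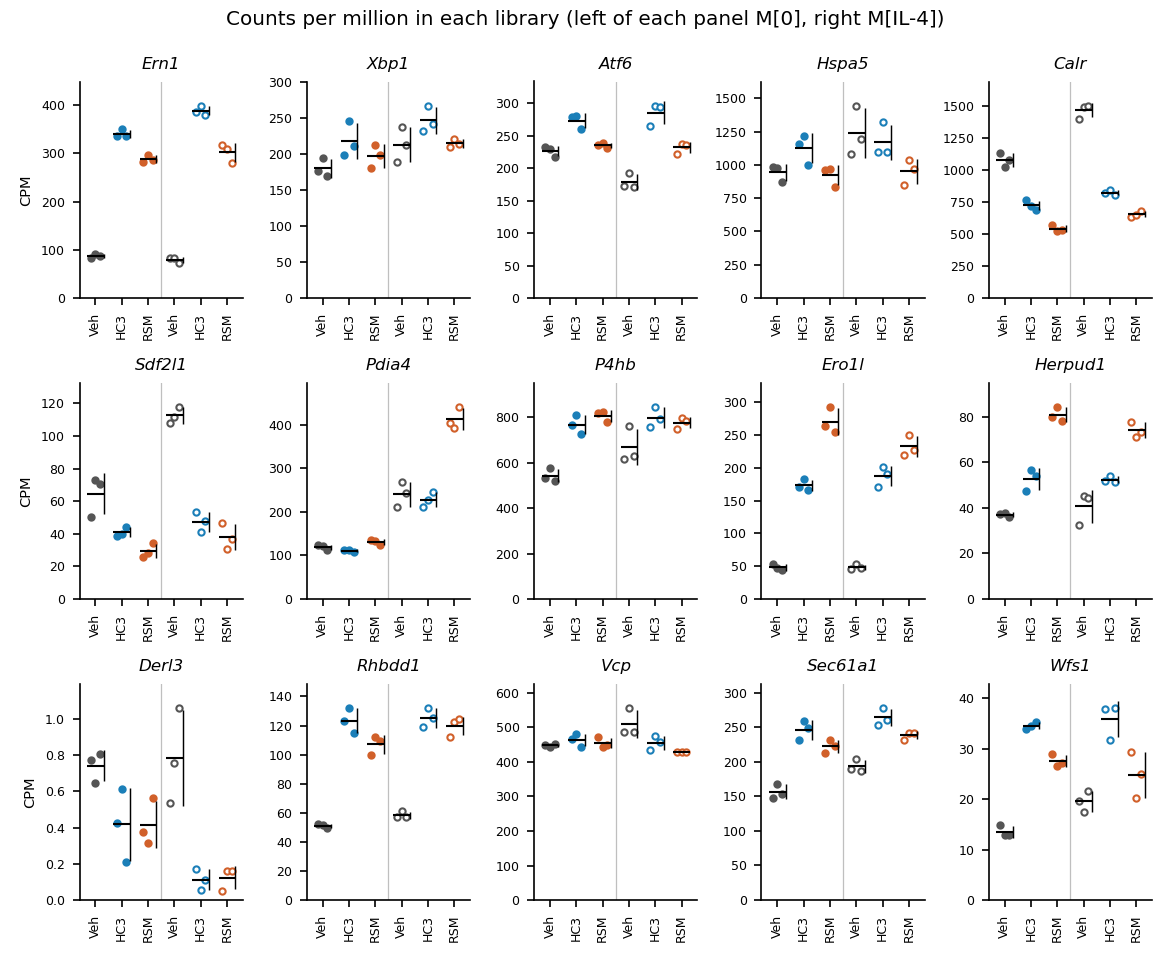
CPM (linear axes from 0) in each library for the 15 members given library by library, with M[0] on the left (filled points) and M[IL-4] on the right (open points) of each panel, horizontal lines at the group mean and vertical lines of 1 SD to each side (n = 3). *Ern1*, *Ero1l*, *Rhbdd1* and *Wfs1* are higher in the inhibitor groups and *Calr* and *Sdf2l1* lower, while *Pdia4* is highest in RSM M[IL-4].

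IL-4 itself moved these genes by small amounts and mostly upward. In vehicle-treated cells 21 members rose and 1 fell (55.3% and 2.63%, against 16.1% and 14.9% of all genes), with a median log2 fold change of 0.23 against -0.0078 for all genes. Only *Pdia4* was called (6.66% of all genes were called in either direction), at a log2 fold change close to the threshold of 1. It was 0.93 without replicate 2, 0.97 without replicate 3 and 0.96 with scaling by library size, each of which left 0 members called. Of the chaperones 9 of 11 rose, of the oxidoreductases 4 of 6, of the ERAD genes 5 of 13 and of the translocation and membrane genes 3 of 4, while of the sensors *Atf6* fell (-0.34, FDR = 0.000308) and 0 rose. The largest rises were those of *Pdia4* (1.01, FDR = 1.69e-08), *Sdf2l1* (0.80, FDR = 0.000305), *Creld2* (0.76, FDR = 2.3e-06) and *Pdia6* (0.65, FDR = 1.93e-07). Among the abundant chaperones, *Hsp90b1* rose by 0.55 (FDR = 0.000307), *Calr* by 0.45 (FDR = 1.03e-05) and *Hspa5* by 0.39 (FDR = 0.0102, without replicate 3 0.118). Without replicate 3 of each group, 10 of the 38 members passed in place of 22.

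Fewer members passed when the inhibitors were present. With HC3, IL-4 raised 5 and lowered 1 (13.2% and 2.63%, against 7.22% and 7.48%), and under RSM it raised 3 and lowered 1 (7.89% and 2.63%, against 8.79% and 6.74%), with medians of 0.11 and 0.078. The call with a fold threshold was met by *Pdia4* and *Derl3* in each, against 3.97% and 4.26% of all genes. *Pdia4* rose by 1.04 under HC3 (FDR = 3.04e-08) and by 1.66 under RSM (FDR = 2.86e-11). *Derl3* fell (FDR = 0.0388 and 0.0469) from the few counts given above, and neither call held on leaving out any 1 replicate (FDR 0.101 to 0.432 and 0.0887 to 0.272). On leaving out replicate 1, 2 or 3, the members that passed numbered 2, 3 and 1 under HC3 and 3, 2 and 1 under RSM. The share that rose under RSM was near that of all genes, and whether the IL-4 effect differed from that in vehicle was tested member by member.

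**Figure D4:**
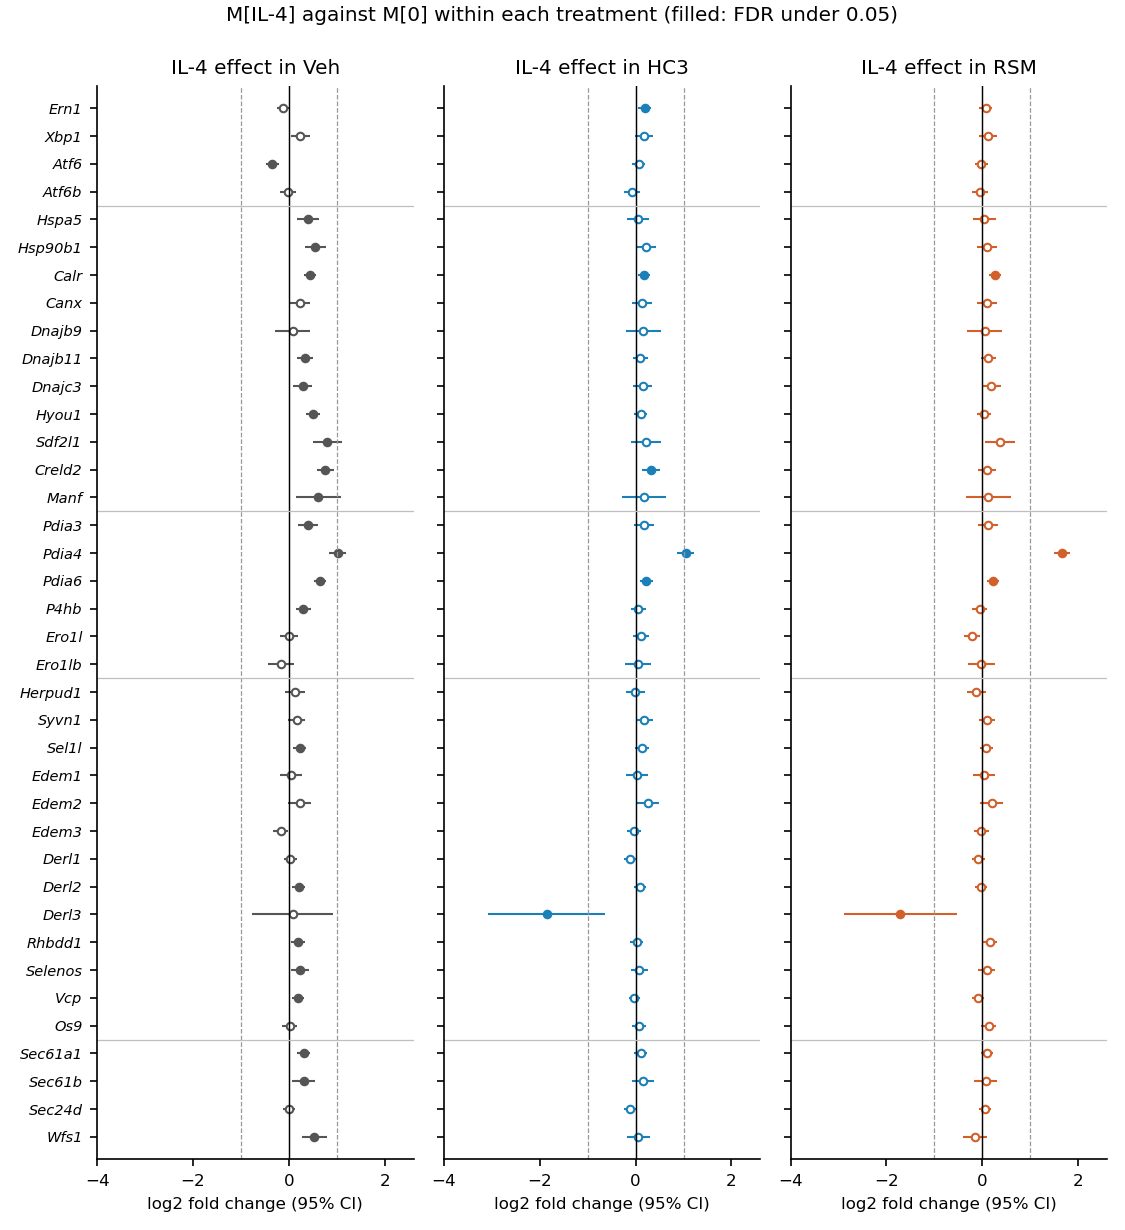
Log2 fold change of each member between M[IL-4] and M[0], with its 95% confidence interval, in Veh (left), HC3 (middle) and RSM (right), where filled points have an FDR under 0.05. In Veh the chaperones and most oxidoreductases lie to the right of 0, and in HC3 and RSM most lie near 0, with *Pdia4* at or above 1 in all 3 panels.

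The interaction, the inhibitor effect in M[IL-4] minus that in M[0], passed the FDR for 5 members under HC3 (2 higher and 3 lower, 3.08% and 3.40% of all genes) and for 8 under RSM (2 higher and 6 lower, 5.05% and 4.14%). By edgeR 0 members reached a log2 size of 1 as well in either, against 1.24% and 2.14% of all genes. DESeq2 also called 0, and 15 and 15 members had an unadjusted p under 0.05. Lower under both inhibitors were *Hyou1* (-0.39 and -0.46, FDR = 0.0167 and 0.00345), *Creld2* (-0.43 and -0.66, FDR = 0.0469 and 0.00226) and *Pdia6* (-0.43 and -0.43, FDR = 0.00604 and 0.00396). *P4hb* (-0.36, FDR = 0.038), *Vcp* (-0.27, FDR = 0.0421) and *Wfs1* (-0.68, FDR = 0.0145) were lower under RSM. *Atf6* was higher with both (0.41 and 0.32, FDR = 0.00768 and 0.0243), *Ern1* under HC3 (0.31, FDR = 0.0433) and *Pdia4* under RSM (0.64, FDR = 0.00103). The 2 interactions share the vehicle libraries, and without replicate 3 of each group 0 members passed in either, against 3 under HC3 and 5 under RSM without replicate 1, and 3 and 6 without replicate 2.

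With the replicate block within each polarization, 16 and 19 members passed the interaction. Added to the above were *Hspa5* (-0.33 and -0.35, FDR with the block 0.000443 and 0.00022), *Hsp90b1* (-0.33 and -0.45, 0.000762 and 1.76e-05), *Sdf2l1* (-0.59 and -0.43, 0.00131 and 0.0158) and *Calr* (-0.26 and -0.17, 0.00198 and 0.0339) among the chaperones, all lower. *Pdia3*, *Manf*, *Dnajb11* and *Sec61a1* were also lower under both inhibitors (FDR with the block 0.00121 to 0.0424), as were *P4hb*, *Vcp* and *Wfs1* under HC3 (0.008, 0.023 and 0.00495). With RSM, *Ero1l* (-0.22, FDR with the block 0.0467) and *Derl2* (-0.23, 0.0197) were lower and *Ern1* was higher (0.19, 0.0363).

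The 2 inhibitors were used at different doses, 250 µM and 5 µM, so a difference between them is a difference between these treatments. HC3 against RSM passed for 9 members in M[0] (7 higher and 2 lower under HC3, 6.18% and 7.43% of all genes) and for 9 in M[IL-4] (6 and 3, 4.97% and 8.03%). By edgeR 0 members reached a log2 size of 1 as well, against 3.04% and 2.80% of all genes, DESeq2 also called 0, and 16 and 18 had an unadjusted p under 0.05. *Ern1* was higher under HC3 by 0.24 and 0.36 (FDR = 0.0127 and 0.000459), *Calr* by 0.42 and 0.33 (FDR = 6.82e-05 and 0.000736), *Hyou1* by 0.27 and 0.34 (FDR = 0.00886 and 0.00147) and *Atf6* by 0.22 and 0.30 (FDR = 0.0241 and 0.00253).

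*Ero1l* was lower under HC3 than under RSM (M[0] -0.64, M[IL-4] -0.31, FDR = 2.83e-05 and 0.0168), as was *Herpud1* (-0.62 and -0.50, FDR = 0.000158 and 0.00132), and *Pdia4* in M[IL-4] (-0.86, FDR = 4.58e-07). In M[0] *Sdf2l1*, *Rhbdd1* and *Sec24d* were also higher under HC3 (0.47, 0.20 and 0.27, FDR = 0.0455, 0.0473 and 0.00553), and in M[IL-4] *Wfs1* and *Creld2* (0.53 and 0.31, FDR = 0.00383 and 0.0248). Without replicate 1 or 2, 4 and 5 members passed in M[0]. Without replicate 3, only *Calr*, *Ero1l* and *Herpud1* passed in M[0] and *Calr*, *Ern1* and *Pdia4* in M[IL-4]. With the block within each polarization 20 and 22 members passed, among them *Hspa5*, which was higher under HC3 by 0.29 and 0.30 (FDR with the block 1.61e-05 and 9.62e-06), *Dnajb9* (0.000846 and 2.39e-05), *Edem2* (0.00101 and 9.87e-05) and *Manf* (0.00114 and 0.000248).

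The members with and without a form of the ER stress response element in the window moved as follows, as a description with no test. *Hyou1*, *Derl1* and *Sec61a1*, which rose in every inhibitor comparison, and *Atf6* and *Manf*, which did not, had no window and are left out. With HC3 in M[0], 2 of the 12 members with it rose and 2 fell, and of the 21 without it 11 rose and 1 fell (median log2 fold changes 0.058 and 0.28), against 22.6% and 21.5% of all genes, so the counts with it were near those shares. With RSM in M[0], 1 of the 12 rose and 2 fell, and of the 21 9 rose and 2 fell (medians -0.042 and 0.15), against 20.5% and 20.7%. With HC3 in M[IL-4], 1 of the 12 rose and 5 fell, and of the 21 8 rose and 3 fell (medians -0.20 and 0.21), against 18.9% and 19.9%. With RSM in M[IL-4], 1 of the 12 rose and 6 fell, and of the 21 9 rose and 3 fell (medians -0.30 and 0.13), against 20.1% and 18.5%. With IL-4 in vehicle, 7 of the 12 and 11 of the 21 rose and 0 fell in either (medians 0.31 and 0.20), against 16.1% and 14.9%.

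Further genes of the same pathways were counted from lists of general knowledge. Over all genes tested, 22.6%, 20.5%, 18.9% and 20.1% rose and 21.5%, 20.7%, 19.9% and 18.5% fell (HC3 and RSM in M[0], then in M[IL-4]), and the counts below are to be read against these shares. Of 10 genes of the PERK arm, 8 rose and 1 fell under HC3 in M[0], and 8 rose and 2 fell in each of the other inhibitor comparisons, with 7 called higher in each and medians of 2.25, 2.08, 1.74 and 1.57. The largest were the pseudokinase *Trib3* (6.57 under HC3 in M[0] and 5.56 under RSM in M[IL-4]), the glutathione-degrading enzyme *Chac1* (4.33 and 2.48) and *Ddit3*, which encodes the transcription factor CHOP (3.33 and 2.47), all with FDRs of at most 4.15e-09. The gene of the sensor itself, *Eif2ak3*, fell from 45.1 ± 5.44 CPM (SD, n = 3) to 31.6 ± 3.14 under HC3 and 36.0 ± 3.68 under RSM in M[0] (FDR = 0.00103 and 0.0252).

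Of 12 genes of the translocon and signal peptidase, 7, 8, 5 and 3 rose and 0 fell (in the same order), and of 12 further ERAD genes 6, 5, 5 and 5 rose and 0, 1, 0 and 1 fell. Of 10 genes of glycoprotein folding and trimming, 6, 6, 3 and 4 rose and 1 fell in each. Of 11 COPII coat and cargo receptor genes, 5, 8, 5 and 4 rose and 1 fell in each. Of 6 genes that process ATF6 and IRE1 signals, 2 rose in each and 0 fell. By edgeR no gene of these 5 lists was called with the fold threshold in the 4 inhibitor comparisons. Of 5 tested ER-phagy receptors at most 1 rose and at most 2 fell. Of 5 tested mRNAs that IRE1 is known to cleave, 1, 1, 1 and 0 rose and 1 fell in each, and *Sparc* was called higher under HC3 in M[0] (1.29, FDR = 0.00191). Counts such as 3 of 12, 2 of 6 and 1 of 5 were near the shares of all genes.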

How the data were processed

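RNA of 18 BMDM libraries (6 groups, 3 each, grouped by the labels) was sequenced from poly-T selected mRNA. Per the study's methods and processing notes, the authors used fastp for trimming and STAR for alignment to GRCm38, marked duplicates with Picard and kept them, and counted exon reads per gene with Subread featureCounts. The authors also kept only read pairs with a set mapping quality score. Tool versions, annotation release and strand setting are not given in the sources used here. The deposited values are raw counts per gene, with no normalization, and 17457796 to 19522255 counts per library limit precision mainly for *Derl3*.

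The 14979 genes that reached 10 counts in 2 or more libraries were tested with edgeR 4.0.16 in R 4.3.3 (TMM scaling, quasi-likelihood test, 1 coefficient per group, all libraries in the fit), with Benjamini-Hochberg adjustment over all of them. DESeq2 1.42.0, other filters and scalings, the replicate number as a block, fits of only the groups compared and leaving out each replicate were the alternatives, and the scripts were tested on simulated data. Same-numbered libraries of 1 polarization deviated together (r of deviations from the group mean 0.110 to 0.372, all 18 pairs above 0.1). Across polarizations 12 of 27 pairs were above 0.1, so the block was also fitted within each polarization. Members that passed the FDR only with it are named for the inhibitor comparisons with Veh and for the interactions. For HC3 against RSM only some of them are named. The labels give 3 individual mice but do not say that a number marks a mouse. An exact permutation test of 3 against 3 cannot go below 0.1 and was not used.

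Members given library by library are those called (FDR under 0.05, log2 fold change of at least 1 in size) in any of 11 comparisons, plus *Xbp1*, *Atf6*, *Hspa5*, *Vcp* and the most abundant member per kb of each arm. Of the other lists, up to 3 called genes were named, and *Eif2ak3* was named after its values were seen. The members and lists were chosen with earlier results of these data known. CPM are TMM-scaled. Near-identical transcript stretches were found with blastn 2.17.0 in GENCODE transcripts, and promoter windows are from RefSeq.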

Additional observations from a re-analysis of the deposited data

Results flagged for a closer look

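The inhibitor effect differed between M[IL-4] and M[0], by edgeR's test of the interaction, for 13 pairs of gene and inhibitor. With HC3 the log2 effect was larger in M[IL-4] by 0.31 for *Ern1* and 0.41 for *Atf6*, and the interaction was -0.39 for *Hyou1*, -0.43 for *Creld2* and -0.43 for *Pdia6*. With RSM it was 0.32 for *Atf6* and 0.64 for *Pdia4*, and -0.46 for *Hyou1*, -0.66 for *Creld2*, -0.43 for *Pdia6*, -0.36 for *P4hb*, -0.27 for *Vcp* and -0.68 for *Wfs1*. None of the 13 passed without replicate 3 of each group. With groups of 3 libraries, a single library far from its group was not looked for.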

How the results depend on the processing

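Of 418 log2 fold changes (38 members in 11 comparisons), 144 passed the FDR, 79 of them under every alternative and 100 under every alternative but the one without replicate 3. The sign changed in 120 pairs of value and alternative, none past the FDR in either fit, with a size of at most 0.16. In the 4 comparisons of an inhibitor with Veh, the counts of members called or past the FDR, both directions together, stayed within 1.5 times the reported count under all alternatives. By direction, the members lower under RSM in M[IL-4] numbered 14 with the replicate block over all libraries and 15 with that within each polarization (9), while without replicate 3 8 were higher under RSM in M[IL-4] (14) and 2 lower under RSM in M[0] (4). The IL-4 counts did not stay within 1.5 times, nor did the counts past the FDR for the interactions and for HC3 against RSM. The counts called for the interactions and for HC3 against RSM stayed at 0 under every alternative. The causes of the moves were not tested. The depth limits *Derl3*, with 1 to 19 counts per library.

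The replicate block, with the number as a factor over all 18 libraries, gave 10 members for the interaction of HC3 (in place of 5), 17 and 18 for HC3 against RSM in M[0] and M[IL-4] (9 and 9), and 1 called member for IL-4 with RSM (2). The block within each polarization gave 16 and 19 for the interactions of HC3 and RSM (5 and 8), and 20 and 22 for HC3 against RSM. It was not run for the IL-4 comparisons, which compare polarizations.

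The fit of only the groups compared gave 2 members past the FDR for IL-4 with HC3 (6), 2 for the interaction of HC3 (5), and 1 called for IL-4 with HC3 and 1 with RSM (2 each). DESeq2 and the absence of a count filter also called 1 in each of these IL-4 comparisons, and without the filter 15 members passed for HC3 against RSM in M[IL-4] (9). Scaling by library size gave 0 called for IL-4 in Veh (1), and for IL-4 with HC3 1 called (2) and 3 past the FDR (6).

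On leaving out each replicate in turn, the counts past the FDR ran from 10 to 18 for IL-4 in Veh (22), 1 to 3 with HC3 (6) and 1 to 3 with RSM (4). They ran from 0 to 3 and 0 to 6 for the interactions of HC3 and RSM (5 and 8), and from 3 to 5 and 3 to 11 for HC3 against RSM in M[0] and M[IL-4] (9 and 9). The counts called ran from 0 to 1 for IL-4 in Veh (1), 0 to 1 with HC3 (2) and 1 to 1 with RSM (2).

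Of those 120 sign changes, 8 were in a comparison of an inhibitor with Veh for a member given library by library, and they were those of *Hspa5* with RSM in M[0] (0.023 with scaling by library size), and of *Xbp1* with RSM in M[IL-4] (-0.0042 with DESeq2, -0.0010 without a count filter, -0.0071 without mitochondrial genes). On leaving out a replicate, the log2 fold change ran from -0.044 to 0.065 for *Xbp1* with RSM in M[IL-4], -0.0032 to 0.081 for *Vcp* with HC3 in M[0], -0.010 to 0.034 for *Vcp* with RSM in M[0] and -0.12 to 0.010 for *Pdia4* with HC3 in M[IL-4].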

Other observations

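Of the 38 members, 10 had their highest level of the 3 libraries in replicate 2 in each of the 6 groups, namely *Xbp1*, *Dnajb9*, *Dnajc3*, *P4hb*, *Ero1lb*, *Edem1*, *Edem2*, *Derl1*, *Selenos* and *Sec61a1*. *Manf* was lowest in replicate 2 in all 6 groups and *Derl2* lowest in replicate 3 in all 6. No member was highest in replicate 1, or in replicate 3, in every group.

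The share of counts from mitochondrial genes was 1.68% to 2.03% in Veh M[0], 2.51% to 3.45% in HC3 M[0] and 0.709% to 0.814% in RSM M[0]. In M[IL-4] it was 1.78% to 2.20% with Veh, 2.50% to 3.31% with HC3 and 0.665% to 0.829% with RSM, so that the 3 treatments did not overlap in either polarization. Leaving these genes out before scaling kept every count of members within 1.5 times the reported count.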
